A study of Mus musculus with 6 samples.

Results

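Cytosolic ribosomal proteins are the protein subunits of the ribosome that translates nuclear mRNAs. Expression of their genes was compared between 3 Control and 3 Cripto KO samples of macrophages (MPs) sorted from injured mouse skeletal muscle. Members were chosen by gene symbol. They were all rows of the deposited table whose symbol starts with Rpl or Rps and a digit, together with Rpsa, Rplp0, Rplp1, Rplp2 and Gm10073, and without the Rps6k kinases. The rule took 122 of the 13008 rows. Of these, 77 were the main genes of the ribosomal proteins (31 of the small subunit, 43 of the large subunit and 3 of its stalk). A further 10 were paralogs or retrogenes, and 1, Rps19bp1, is not a ribosomal protein but a protein that binds one. There were 33 rows with -ps in the symbol, called copies here. Counted together with Gm10073, they belong to 24 of the main genes. Gm10073, whose sequence resembles Rplp1, was put on the list because it was already known to differ between the groups, so its values are given without a test. No member was removed by a filter on low values, and all 122 were in the fit over the whole table.

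All mice were C57BL/6J, labelled male and 3 months old, and all had received cardiotoxin, a snake toxin that destroys muscle fibers, 5 days before their hind limb muscles were taken. The cells were F4/80+/Ly6C-Low MPs, which are the anti-inflammatory MPs of repairing muscle, sorted as GFP+ cells. Cripto KO mice (Tg:LysMCre::Cripto-/- in the labels, Cripto My-LOF in the study) carried floxed Cripto alleles, which are removed by a Cre under the LysM promoter of the myeloid lineage, together with the R26mTmG reporter that turns on GFP in cells with active Cre. The labels give the Controls as wild type, whereas the study describes its GFP+ Controls as LysMCre mice with the reporter, so Cre and GFP were shared by both groups there. LysMCre need not recombine in every cell, and Cripto itself (Tdgf1) was not analysed here, so the deletion was not checked. Values are normalized reads (0.5 was added to each read count, and the result scaled to 1000000 of a normalized library size). Each of the 6 samples had between 12688968 and 15659847 reads. One of the Controls, replicate 1, had an Xist value of 171 and the other 5 samples had at most 0.885, although all mice are labelled male. Control replicate 2 had a Lyz2 value of 11066, and the other 5 samples had at most 28.3 for this gene, into which the LysMCre transgene is inserted. Markers of macrophages summed to between 12216 and 12412 in the Controls and between 11470 and 12604 in Cripto KO MPs, with all 8 listed genes present, but with Itgam at a mean of only 0.964. Neutrophil, endothelial, muscle and erythroid markers each summed to at most 66.7 in every sample, with S100a9 and Hbb-bt at means of 0.0362 and 0.149. Fibroblast markers summed to between 459 and 481 in the Controls and between 540 and 591 in Cripto KO MPs, so that the groups did not overlap, and proliferation genes to between 321 and 391 and between 351 and 362. What share of any value below comes from other cells was not tested, and fewer cells of a type cannot be told apart from less RNA per cell.

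Ribosomes are built in the nucleolus from rRNA and one molecule of most of the proteins, so the proteins are made in matched amounts. Their mRNAs begin with a stretch of pyrimidines, the TOP motif, through which mTOR and Larp1 control their translation and stability. Most mammalian ribosomal protein genes have also left many intronless copies elsewhere in the genome, which arose from reverse-transcribed mRNA. The coding sequence of a copy can be identical or nearly so to that of the gene, and a short read from such a stretch fits both. RSEM, with which the authors quantified the reads, divides reads of this kind among the sequences that they match.

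How alike genes and copies are can be seen in 4 pairs of 60 bases each, from transcripts of GENCODE M21 on GRCm38. Capitals mark the bases at which the gene and the copy differ. These 4 are some of the genes and copies whose values are set side by side below, and pairs not shown can be less alike. Over the aligned coding bases, Rps15a-ps8 differed from Rps15a at 30 of 387 and Rpl15-ps2 from Rpl15 at 8 of 610, whereas Rps6-ps4 differed from Rps6 at 0 of 747.
Rplp1: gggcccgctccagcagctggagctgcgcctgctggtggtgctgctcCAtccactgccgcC
Gm10073: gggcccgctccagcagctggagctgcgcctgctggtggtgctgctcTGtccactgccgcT
Rpl35a: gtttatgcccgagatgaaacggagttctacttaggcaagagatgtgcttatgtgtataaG
Rpl35a-ps2: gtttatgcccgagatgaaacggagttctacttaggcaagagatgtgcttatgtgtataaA
Rpl34: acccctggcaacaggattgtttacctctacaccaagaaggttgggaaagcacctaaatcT
Rpl34-ps1: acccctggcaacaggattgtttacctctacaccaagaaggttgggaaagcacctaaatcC
Rps12: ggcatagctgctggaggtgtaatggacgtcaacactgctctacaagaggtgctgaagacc
Rps12-ps3: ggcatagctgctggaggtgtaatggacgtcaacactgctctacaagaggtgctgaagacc
Over the whole coding sequence, Gm10073 differed from Rplp1 at 5 of 342 bases, Rpl35a-ps2 from Rpl35a at 1 of 330 and Rpl34-ps1 from Rpl34 at 2 of 353. Rps12-ps3 differed from Rps12 at 0 of the 384 aligned bases, but the Rps12 transcript used has 444 coding bases. Rplp1 lies at chr9:61913284-61914542 and Gm10073, a single block annotated as protein coding, at chr8:106572966-106573461, both on the minus strand. Rpl34 lies at chr3:130726831-130730398 on the minus strand, Rpl34-ps1 at chr6:71124610-71124963, Rps12 at chr10:23785183-23787275 on the minus strand and Rps12-ps3 at chr19:59322290-59322783. Rpl35a lies at chr16:33056453-33060189, and Rpl35a-ps2 at chr1:181241988-181242320 on the minus strand. Rpl35a-ps2, Rpl35a-ps3, Rpl35a-ps4 and Rpl35a-ps6 are on 4 chromosomes and had 0 mismatches among their 333 bases. Of the 33 copies, 29 are annotated as processed pseudogenes, 2 as transcribed processed pseudogenes and 2, Rpl10-ps3 and Rps12-ps3, as protein coding.

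Shared sequence was counted in words of 31 bases, taken from all annotated transcripts of a row together. The median main gene had 83.2% of its words in no other row of the table, and the median copy had 5.07%. For a gene with several transcripts, this share is not that of its main mRNA. Rpl10a, for example, had 2734 words at an annotated length of 729 bases, and 77.1% of these words were in no other row. For 11 copies all words were also in the gene that they are named after. Rps15a-ps8 shared only 14.01% of its words with Rps15a, and Rps7-ps2 shared 0% with Rps7, so the symbol alone does not say how close a copy is. A search by sequence, for rows with at least 50% of their words in a main gene, found 67 rows for 48 main genes, and 32 of these rows are not members by symbol. They include Gm15500 for Rpl5, Gm10275 for Rpl12, Gm15772 for Rpl26, and Gm13841 and Gm8210 for Rpl29.

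The main genes together took between 4.18% and 4.42% of all reads in the Controls and between 4.15% and 4.35% in Cripto KO MPs. Per sample, the share was 4.42%, 4.18% and 4.37% in Control replicates 1, 2 and 3, and 4.15%, 4.35% and 4.23% in Cripto KO replicates 1, 2 and 3. The means were 4.32% ± 0.126 and 4.24% ± 0.105 (SD, n = 3 each), so the groups overlapped and their difference was smaller than the spread in either group. The copies took 0.434%, 0.424% and 0.421% of reads in the Controls and 0.393%, 0.420% and 0.410% in Cripto KO MPs. These did not overlap by the distance between 0.421 and 0.420, and no test was made of such a sum. Genes of the small subunit took 1.86% ± 0.0499 and 1.84% ± 0.0418, those of the large subunit 2.12% ± 0.0706 and 2.08% ± 0.0513, and the stalk genes 0.340% ± 0.00534 and 0.330% ± 0.0136 in the Controls and Cripto KO MPs (SD, n = 3 each).

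**Figure D1:**
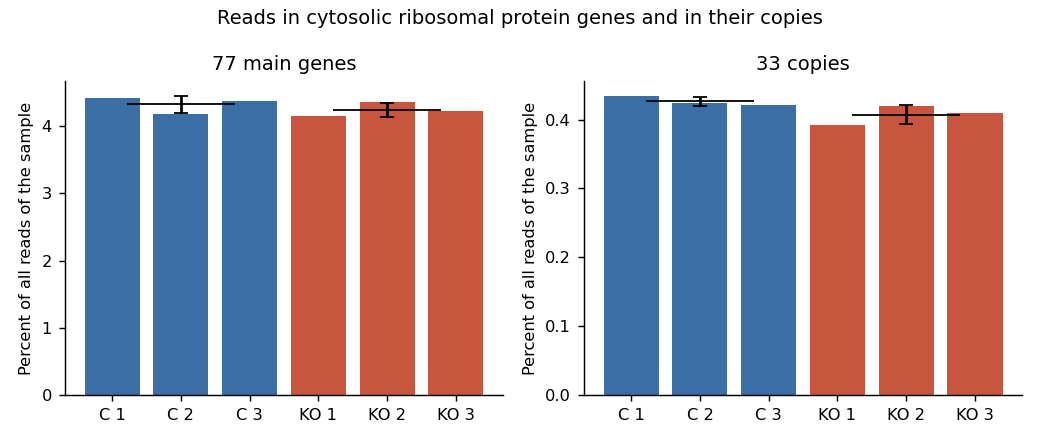
Percent of all reads of each sample (vertical axes) in the 77 main genes (left) and the 33 copies (right), for Control (C, blue) and Cripto KO (KO, red) replicates, with black lines for group means and their SD. Main genes lie between 4.15% and 4.42%, and copies between 0.393% and 0.434%, far less.

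Groups were compared with limma on log2 values, as log2(Control/Cripto KO), so that a positive value means higher in Control. With p-values adjusted over all 13008 rows (Benjamini-Hochberg), 17 rows (0.131%) had an adjusted p under 0.05. None of the 77 main genes was among them, 0 with edgeR and 1, Rpl29, with DESeq2. At an unadjusted p under 0.05, 3 of the 77 main genes passed, which is 3.90%, compared with 8.59% of all rows. Rpl29 and Rpl34 were higher in the Controls, a direction in which 4.6% of all rows passed, and Rpl12 was higher in Cripto KO MPs, in which 3.99% did. The 31 genes of the small subunit held none of them. The 43 genes of the large subunit held all, which is 6.98% of these genes and also below the 8.59% of all rows. No overlap between the groups was seen for 7 main genes (9.09%), against 14.5% of all rows. Of these, 6 were above the Cripto KO samples in all Controls and 1 was below, against 8.02% and 6.43% of all rows.

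Main genes differed little and with small errors. Their log2 fold changes were between -0.23 and 0.53 with a median standard error of 0.07, and for 72 of 77 the 95% interval lay within 0.5 of 0 on the log2 scale. Rpl29, Rpl35a, Rpl26, Rpl5 and Rps12 were the other 5. The median SD within groups was 0.07 on the log2 scale for main genes, 0.09 for the 1666 rows with a mean value of at least 100 and 0.17 for all rows. Positive fold changes were seen for 62 of 77 main genes (80.5%), with a median of 0.05, whereas 52.6% of all rows were positive, with a median of 0.01. Of the 1666 rows with a mean of at least 100, 70.3% were positive and the median was 0.05. Of the 73 main genes among them, 84.9% were positive and the median was 0.06, and no test was made of this difference. After quantile normalization, 41 of the 77 were positive, with a median of 0.01. In 48 of 77 main genes the lowest of the 6 values was in Cripto KO replicate 1, which was lowest for 38.5% of the abundant rows. The median fold change of main genes was 0.02 without that sample. It was 0.03 without Control replicate 1, the sample with high Xist, and 0.08 without Control replicate 2, the sample with high Lyz2, and in both cases 0 of 77 main genes had an adjusted p under 0.05.

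**Figure D2:**
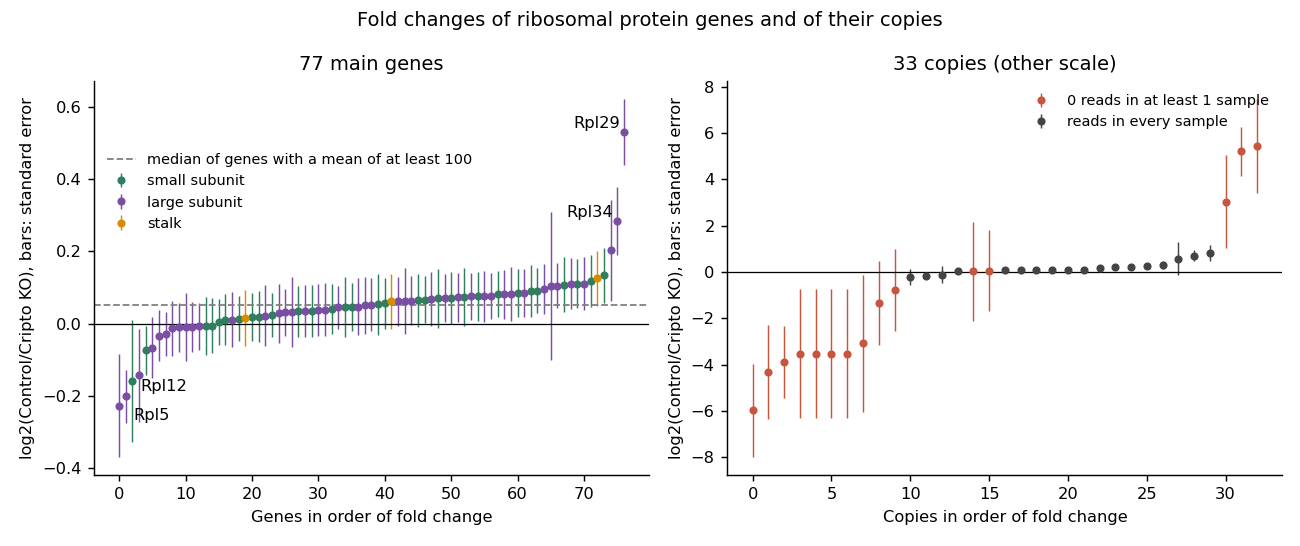
log2(Control/Cripto KO) with its standard error for each of the 77 main genes (left, coloured by subunit) and each of the 33 copies (right, on a wider scale), in order of size. Main genes lie between -0.23 and 0.53 around the dashed median of abundant rows, and the copies with 0 reads in at least 1 sample (red) reach from -5.97 to 5.43.

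Rplp0, Rplp1 and Rplp2 form the stalk of the large subunit, which recruits the elongation factors. Rplp0 had values of 1639, 1658 and 1644 in the Controls and 1511, 1688 and 1541 in Cripto KO MPs, and a log2 fold change of 0.06 (95% interval -0.11 to 0.23, limma, adjusted p = 0.856). Rplp2 had 585, 537 and 558 in the Controls and 512, 601 and 551 in Cripto KO MPs, with a log2 fold change of 0.02 (95% interval -0.16 to 0.19, limma, adjusted p = 0.971). For both, Cripto KO replicate 2 was the highest sample and Cripto KO replicate 1 the lowest.

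Rplp1 had values of 1356, 1269 and 1336 in the Controls and 1166, 1303 and 1166 in Cripto KO MPs. Its log2 fold change was 0.13 (95% interval -0.05 to 0.30, limma, adjusted p = 0.690), and the groups overlapped through Cripto KO replicate 2. Gm10073, which shares 73.0% of its words with Rplp1, had 776, 826 and 648 reads in the Controls and 0, 6 and 12 reads in Cripto KO MPs. All Controls were above all Cripto KO samples, and the row had been listed for that reason. Over the groups these were 2250 reads against 18 reads. Gm10073 took 4.04%, 4.69% and 3.81% of the reads of both rows in the Controls, and 0%, 0.0326% and 0.0709% in the Cripto KO samples. The sum of both rows was 1413, 1332 and 1389 in the Controls and 1166, 1303 and 1167 in Cripto KO MPs. Its log2 fold change was 0.19. The sum did not overlap between the groups, whereas Rplp1 alone did. This separation came with adding a row that was listed for its difference, so nothing is read from it. Of all rows, 8.02% were higher in the Controls without overlap. Of the words of Gm10073, 24.2% were in no other row, more than in the median copy.

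**Figure D3:**
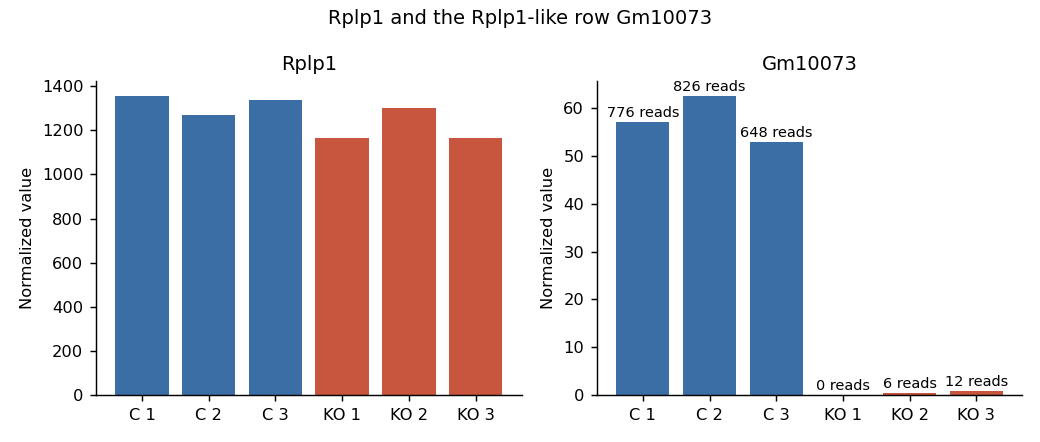
Normalized values (vertical axes, linear and different between the panels) of Rplp1 (left) and Gm10073 (right) in each Control (C, blue) and Cripto KO (KO, red) replicate, with the reads of Gm10073 above its bars. Rplp1 lies between 1166 and 1356 in all 6 samples, whereas Gm10073 has 648 to 826 reads in the Controls and 0 to 12 in the Cripto KO samples.

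Rpl29, a protein of the large subunit that also binds heparin, had the largest fold change of the main genes. Its values were 193, 153 and 161 in the Controls and 115, 121 and 113 in Cripto KO MPs, and the groups did not overlap. The log2 fold change was 0.53 (standard error, SE, 0.09, limma, adjusted p = 0.0976), and by p it was number 32 of all 13008 rows. It passed with DESeq2 (adjusted p = 0.000244, where 0.546% of all rows passed), and over all alternatives the adjusted p went up to 0.452. Gm13841 and Gm8210, which share 79.5% of their words with Rpl29, each had 0, 113 and 114 reads in the Controls and 252, 274 and 242 in Cripto KO MPs. Both rows had identical reads in every sample, and were higher in all Cripto KO samples, where Rpl29 was lower. Together with them, Rpl29 had 193, 170 and 180 in the Controls and 147, 160 and 146 in Cripto KO MPs. This sum still did not overlap, with a log2 fold change of 0.26 (SE 0.07, limma, adjusted p = 0.410), compared with 0.53 for the gene alone.

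Rpl34 and Rpl12, the other main genes with an unadjusted p under 0.05, also have copies that share sequence with them. Both are proteins of the large subunit, and Rpl12 sits at the base of the stalk. Rpl34 had values of 437, 382 and 364 in the Controls and 289, 347 and 334 in Cripto KO MPs, with a log2 fold change of 0.28 (SE 0.09, limma, adjusted p = 0.494). Rpl34-ps1 had 3, 0 and 495 reads in the Controls and 1113, 568 and 498 in Cripto KO MPs, so Control replicate 3 was like the Cripto KO samples. The sum of gene and copy was 437, 382 and 404 against 360, 387 and 368, which overlapped, with a log2 fold change of 0.13 (limma, adjusted p = 0.668). Rpl12 had values of 54.2, 55.2 and 58.2 in the Controls and 61.0, 63.4 and 68.6 in Cripto KO MPs, with a log2 fold change of -0.20 (SE 0.07, limma, adjusted p = 0.523). Between 89.0% and 91.7% of the reads of the pair were in Gm10275, and the log2 fold change of the sum was 0.05 (limma, adjusted p = 0.893). The lower value of Rpl12 in Control had no counterpart in the sum, whose sign was positive.

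The other 7 main genes with the smallest p had adjusted p-values between 0.688 and 0.711 (limma). They were Rps20, Rps23 and Rps4x of the small subunit, Rplp1, and Rpl7, Rpl5 and Rpl19 of the large subunit. Rpl7 (819 ± 11.1 in the Controls and 761 ± 18.1 in Cripto KO MPs) and Rps4x (1032 ± 12.3 and 956 ± 42.2, SD, n = 3 each) did not overlap between the groups. Rpl5, which carries 5S rRNA into the ribosome together with Rpl11, had the lowest fold change of all main genes, -0.23 (SE 0.14, limma, adjusted p = 0.705). However, Rpl5 had only 211 to 401 reads per sample, and Gm15500, which has 99.9% of its words in Rpl5, had 9622 to 11311. Counted over all its annotated transcripts together, Rpl5 itself had 74.8% of its words in no other row, which is not the share for its main mRNA. The log2 fold change of their sum was 0.08 (limma, adjusted p = 0.789).

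Rpl26 and Rpl35a, both chosen after their values were seen, were the main genes in which the highest reads most plainly fell in the samples without reads in the copies. Rpl26 had 9604, 5793 and 5596 reads in the Controls and 6204, 6512 and 9101 in Cripto KO MPs, so 1 sample of each group stood far above the others. Gm15772 had 0, 2325 and 2433 reads in the Controls and 3080, 2842 and 3 in Cripto KO MPs. Its 2 samples with 0 and 3 reads were the same ones in which Rpl26 was high. The highest value of Rpl26 was 1.79 times the lowest over the 6 samples, the widest of all main genes, and that of the sum was 1.199 times.

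Rpl35a, a protein of the large subunit mutated in some patients with Diamond-Blackfan anemia, had 5328, 6592 and 6636 reads in the Controls and 7757, 5536 and 5225 in Cripto KO MPs. Each of its identical copies Rpl35a-ps2, Rpl35a-ps3, Rpl35a-ps4 and Rpl35a-ps6 had 408, 0 and 0 reads in the Controls and 1, 416 and 362 in Cripto KO MPs. Gm10243 had the same reads again. Samples with copies at 0 or 1 read thus had the higher reads in Rpl35a, in both groups. The values of all 6 rows summed to 543, 499 and 542 in the Controls and 493, 539 and 485 in Cripto KO MPs, and the highest was 1.119 times the lowest, compared with 1.504 times for Rpl35a alone.

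**Figure D4:**
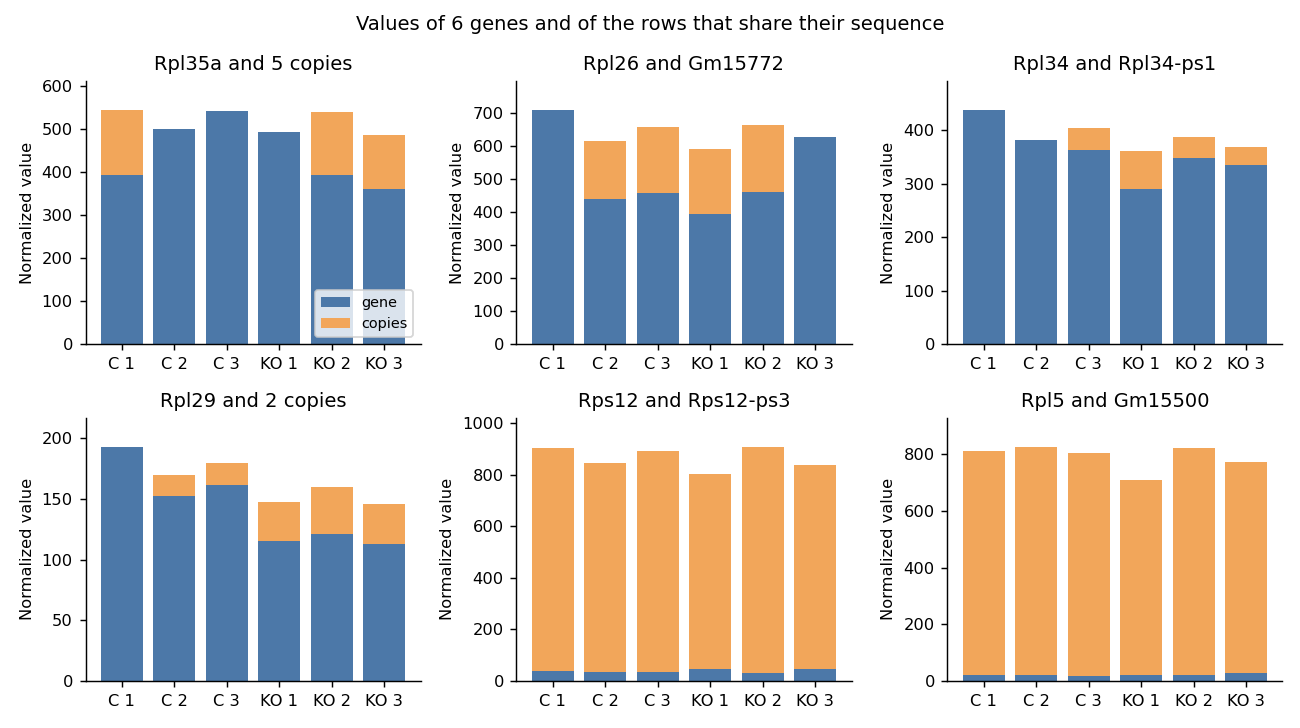
Normalized values (vertical axes) of 6 main genes (blue) and of the rows that share at least 50% of their words with them (orange, stacked) in each Control (C) and Cripto KO (KO) replicate. For Rpl35a, Rpl26, Rpl34 and Rpl29 the copies are near 0 in 1 to 3 of the samples in which the gene itself is highest, and for Rps12 and Rpl5 most of the value is in the copy in all 6 samples.

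Over all 48 main genes with a row found by sequence, the ratio of the highest to the lowest sample was smaller for the sum than for the gene alone in 30. The median ratio was 1.16 for the gene and 1.13 for the sum. The gene alone went over 1.5 times in 6 of 77 main genes, namely Rpl26, Rpl29, Rpl34, Rpl35a, Rpl5 and Rps12. No sum did so, and the largest was 1.32 times for Rpl29. With the copies summed by sequence and the whole table fitted again, 0 of 77 main genes had an adjusted p under 0.05 (0.116% of all rows did, and 0.123% with copies summed by symbol, where it was also 0 of 77), and 2 had an unadjusted p under 0.05, against 8.59% of all rows. The log2 fold changes of 76 were positive with a median of 0.06, and the median of all rows in that fit was 0.01. In the fit without sums, 70.3% of the rows with a mean of at least 100 were positive, with a median of 0.05. No test was made of this difference. The sums were not fitted after quantile normalization, with which 41 of the 77 genes alone were positive. The sum of Rplp1 includes Gm10073, which was listed for its difference.

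Copies as a group varied far more than the genes. None of the 33 had an adjusted p under 0.05 with limma, edgeR or DESeq2. At an unadjusted p under 0.05, 8 passed (24.2%, against 8.59% of all rows), namely 6 that were above in the Controls and 2 that were below. With edgeR and with DESeq2, 5 passed, against 8.47% and 5.83% of all rows. Of 15 copies at 3 reads or fewer in at least 1 sample, 4 passed, against 9.05% of such rows, and of the 18 others 4 passed, against 8.56%. The range from the lowest to the highest sample had a median of 0.27 on the log2 scale for the 11 copies with all words in their gene. This was close to the 0.20 of the main genes. For the other 22 copies the median range was 7.25, and 15 of these 22, but none of the 11, had 0 reads in at least 1 sample. Per sample, 7, 7 and 8 copies were at 0 reads in the Controls and 4, 5 and 1 in Cripto KO MPs. At 3 reads or fewer there were 8, 7 and 8 in the Controls and 8, 5 and 2 in Cripto KO MPs, which overlapped. The identical Rpl35a copies were at 0 together in Control replicates 2 and 3. Each Cripto KO sample also had more reads in total than any Control. Of all 13008 rows, 344 had 0 reads in at least 1 sample, and their number per sample was not counted. Nothing is read from these counts.

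Among the copies with all words in their gene were Rps12-ps3, Rps23-ps1 and Rps6-ps4. Rps12-ps3 had between 10504 and 12412 reads, whereas Rps12 itself had 499, 475 and 416 in the Controls and 704, 409 and 698 in Cripto KO MPs. Between 94.3% and 96.8% of the reads of the pair were therefore counted for the copy. The log2 fold change of Rps12 was -0.16 and that of the sum with its copy was 0.05 (limma, adjusted p = 0.872). For Rpl27 and its copy Rpl27-ps3, which has all of its words in Rpl27, 89.5% to 93.1% of the reads of the pair were counted for the copy.

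The 10 copies with the widest range were Rpl34-ps1, the Rpl35a copies already described, Rpl17-ps3, Rps15a-ps7, Rps15a-ps8, Rpl15-ps2 and Rps13-ps1. Rpl17-ps3 had 331, 321 and 80 reads in the Controls and 0, 196 and 233 in Cripto KO MPs. Its gene Rpl17 had between 8252 and 9457 reads, so its copies held at most 5.55% of the reads of the family. Rps15a-ps7 had 0, 267 and 0 reads in the Controls and 102, 89 and 83 in Cripto KO MPs. Rps15a-ps8 had 0, 0 and 304 in the Controls and 383, 0 and 343 in Cripto KO MPs. Both Rps15a copies were at 0 in Control replicate 1, and each was at 0 in 1 further Control in which the other was not. Rps15a, a protein of the small subunit, had between 5417 and 6340 reads.

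Rpl15-ps2 had 0, 230 and 176 reads in the Controls and 0, 0 and 1 in Cripto KO MPs, while Rpl15-ps3, with all of its words in Rpl15, had between 2180 and 3360. Gm10020, which shares 89.3% of its words with Rpl15, had 0, 665 and 663 reads in the Controls and 0 in all 3 Cripto KO samples. Control replicates 2 and 3 were thus the only samples with reads of more than 1 in Rpl15-ps2 and Gm10020, and Rpl15 itself was 325, 265 and 299 in the Controls and 303, 326 and 299 in Cripto KO MPs. Rps13-ps1 had 154, 0 and 76 reads in the Controls and 27, 44 and 36 in Cripto KO MPs. Calls of such copies hung on single samples. Without Control replicate 1, Rpl15-ps2 had an adjusted p of 0.00148, and over all fits it went up to 0.855. Without Control replicate 2, it was 0.000507 for Rps15a-ps7 (up to 0.989 over all fits) and 0.0099 for Rpl17-ps10 (up to 1.00). Without Control replicate 3 it was 0.00729 for Rpl34-ps1 (up to 1.00), and without Cripto KO replicate 3 it was 0.0226 for Rpl17-ps9 (up to 0.556). The values without a sample are from limma, and the upper ends cover edgeR and DESeq2 as well. With all 6 samples these 5 copies had adjusted p-values between 0.206 and 0.609 (limma).

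The level per length of transcript also differed with the treatment of copies. Lengths were taken from the annotation, and values below are means over the 6 samples per kb. Rplp1 (2537), Rpl41 (1702) and Rps9 (1645) were the highest main genes. Rpl5 (10.3), Rpl27 (44.6) and Rpl12 (48.4) were the lowest. Over the 77 main genes the SD of the log2 level per kb was 1.35 for the genes alone and 0.884 with the rows found by sequence, and the ratio of the highest to the lowest gene went from 246 to 30.7. With these rows, 4 of the 8 genes that had been below the median by more than 4 times were no longer so, namely Rpl5, Rpl12, Rpl27 and Rps12. Rps15a, Rps20, Rpl21 and Rpl22 remained, of which Rps15a and Rps20 have annotated lengths of 5130 and 3706 bases.

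**Figure D5:**
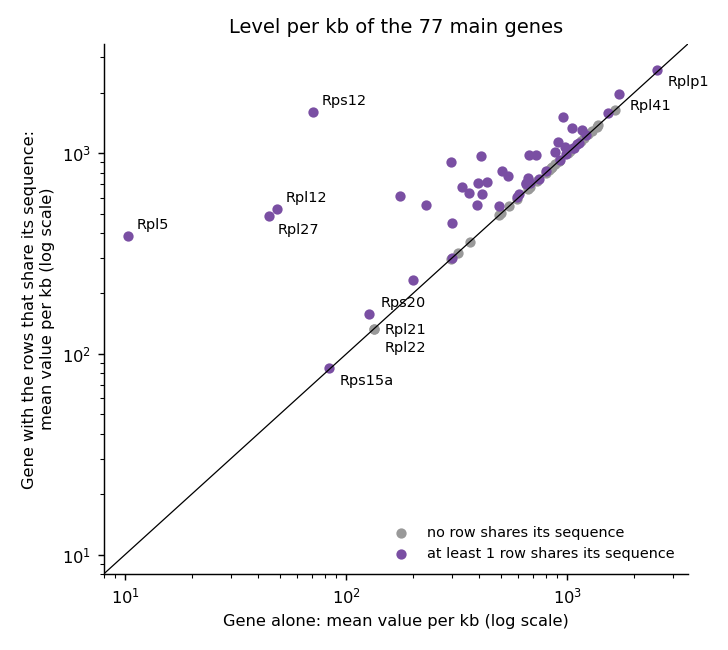
Mean normalized value per kb of transcript of each of the 77 main genes alone (horizontal axis) and with the rows that share at least 50% of their words with it (vertical axis), both on log scales, with the line of equal values. Rpl5, Rpl12, Rpl27 and Rps12 lie far above the line, and the lowest level is 10.3 for the genes alone and 84.6 with the other rows.

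None of the 10 paralogs and retrogenes had an adjusted p under 0.05 with limma. Rpl22l1, Rpl36al, Rpl37rt, Rps27l and Rpl7l1 had log2 fold changes between 0.02 and 0.05 with adjusted p-values of at least 0.912 (limma). Rpl22l1 and Rpl36al encode close relatives of Rpl22 and Rpl36a, Rps27l is a target of p53, and Rpl7l1 acts in the assembly of the large subunit. Rps4l, a copy of Rps4x, was 3.01 ± 0.423 in the Controls and 2.88 ± 1.10 in Cripto KO MPs (SD, n = 3 each). Rpl3l, the form of Rpl3 in striated muscle, had 10, 3 and 1 reads in the Controls and 4, 0 and 0 in Cripto KO MPs, at or near the floor of 3 reads. Rps3a2 (0 to 7 reads) and Rps3a3 (0 to 14 reads), both relatives of Rps3a1, were also near it. Rps19bp1, a regulator of Sirt1 that binds Rps19, was 14.2 ± 0.778 in the Controls and 14.8 ± 0.662 in Cripto KO MPs (SD, n = 3 each). Its log2 fold change was -0.06 (limma, adjusted p = 0.906).

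Of the members within 10 Mb of Tdgf1 on chromosome 9, Rpl29 and Rps27rt did not overlap between the groups, both being higher in the Controls as were 8.02% of all rows, and Rpsa and Rpl14 overlapped. With 4 members in the window, nothing is read from this count. Rps27rt, a retrogene of Rps27 at chr9:114982366-114982739 on the minus strand, lies 4.04 Mb from Tdgf1 and Rpl29 at chr9:106429454-106431568 on the plus strand lies 4.51 Mb from it. Rps27rt had 195, 119 and 107 reads in the Controls and 109, 41 and 68 in Cripto KO MPs. Its log2 fold change was 1.19 (SE 0.31, limma, adjusted p = 0.407), it passed with DESeq2 (adjusted p = 0.0228, where 0.546% of all rows passed), and over all alternatives the adjusted p went up to 0.833. It shares 91.6% of its words with Rps27 and held at most 2.94% of the reads of both. Rpsa, a small subunit protein also known as a laminin receptor, had a log2 fold change of 0.04 (95% interval -0.12 to 0.20, limma, adjusted p = 0.922). Rpl14 had -0.01 (95% interval -0.16 to 0.15, limma, adjusted p = 0.982). These genes lie 9.18 and 9.63 Mb from Tdgf1.

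Other genes of translation were listed for comparison, and none of them had an adjusted p under 0.05. Fau and Rack1 encode ribosomal proteins whose symbols the rule does not take, and their log2 fold changes were -0.06 and 0.05. Of 14 translation factors and other proteins with TOP mRNAs, 13 had a positive fold change, with a median of 0.10, and 2 (14.3%) had an unadjusted p under 0.05, both higher in the Controls, against 4.6% of all rows in that direction and 13.2% of the rows with a mean of at least 100 in either direction. These were Eif3h (283 ± 1.66 and 253 ± 11.3) and Eif3f (342 ± 18.3 and 301 ± 20.2 in the Controls and Cripto KO MPs, SD, n = 3 each), both of the initiation factor eIF3, with adjusted p-values of 0.523 and 0.533 (limma). All 14 are abundant rows, with means of at least 100, a class in which 70.3% of rows were positive.

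Genes of ribosome assembly and rRNA synthesis were listed as well, since they act upstream of the finished ribosome. Of 25 measured, 19 had a negative fold change, with a median of -0.14, and 5 had an unadjusted p under 0.05 (20%), all higher in Cripto KO MPs, where 3.99% of all rows passed in that direction. Nolc1, a chaperone of small nucleolar ribonucleoproteins, was 20.5 ± 1.07 in the Controls and 28.5 ± 3.72 in Cripto KO MPs (SD, n = 3 each), with a log2 fold change of -0.46 (SE 0.11, limma, adjusted p = 0.373). Gar1, a subunit of the H/ACA particles that place pseudouridine in rRNA, was 3.35 ± 0.384 and 4.94 ± 0.356 (SD, n = 3 each), with a log2 fold change of -0.56 (limma, adjusted p = 0.494). The others were Rrp12, Nhp2 and Nob1. Among 10 regulators, Myc (log2 fold change -0.27, limma, adjusted p = 0.673) and Eif4ebp1 (0.13, limma, adjusted p = 0.676) had the smallest p. Of 57 main genes in the RefSeq promoter table (GRCm38), 13 (22.8%) had at least 1 annotated start at a cytosine followed by 4 further pyrimidines, as did 2.97% of 26968 other genes. Within 10 bases of a start, 34 (59.65%) had such a run, as did 34.35% of the other genes.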

How the data were processed

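RNA-seq libraries of 3 Control and 3 Cripto KO samples were made by the authors with the NEBNext Ultra kit. The authors trimmed reads with Cutadapt 1.7.1, counted them with RSEM 1.2.20 against transcripts of GRCm38 release 91 and normalized them with LIMMA. Whether counting used the strand is not given in the sources used here. The deposited values are a normalized signal, reads plus 0.5 per 1000000 of a normalized library size, and 100.0% of 78048 values gave whole reads within 0.01.

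Members and lists were chosen with earlier results of these data known. Groups followed the labels. The main test was limma 3.58.1 in R 4.3.3, fitted with a trended variance to the log2 of all 13008 rows, with neither pseudocount nor filter and with Benjamini-Hochberg adjustment. Tests were first run on simulated data. Alternatives were pseudocounts of 0.5 and 1, a mean of at least 1, quantile normalization, edgeR 4.0.16, DESeq2 1.42.0, a replicate block, each sample left out in turn, and copies summed with their gene by symbol or by sequence (31-base words of GENCODE M21 transcripts). edgeR called 17 rows on the recovered reads. Named are the stalk genes and Gm10073, the 10 main genes with the smallest p, all paralogs and Rps19bp1, the 10 copies with the widest range, members within 10 Mb of Tdgf1, the 3 highest and 3 lowest levels per kb, and the 2 smallest p of each list. Rpl26, Rps12, Rpl27 and other genes and copies named beyond this rule were chosen after their values were seen. The study calls the 3 samples of each group biological replicates, and the labels do not say from how many animals each came. A sample at 3 reads or fewer was taken as at the floor, which covers counting error only. Intervals of fold changes are at 95%. Tables were made in Python 3.11.15 (pandas 2.3.3) and plots with matplotlib 3.10.9.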

Additional observations from a re-analysis of the deposited data

How the results depend on the processing

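The number of rows called over the whole table was 17, and it was 6 with quantile normalization, 71 with DESeq2, 2 with the replicate block, and between 5 and 31 when each sample was left out in turn (5 without Cripto KO replicate 2, 31 without Control replicate 1). Of the main genes, 0 were called, 1 with DESeq2 (Rpl29), and between 0 and 0 with each sample left out. Of the copies, 0 were called, and between 0 and 2 with each sample left out. The number of copies called and their median could not be given where copies were summed, and Rps27rt has no value of its own where rows were summed by sequence. The median log2 fold change of main genes was 0.053 in the main fit and went from 0.0077 to 0.095 over the alternatives. That of copies was 0.066 and went from 0.023 to 0.114. On the log2 scale, the difference in summed value went from 0.023 to 0.098 for main genes and from 0.060 to 0.140 for copies. For 22 named genes, 306 of 329 alternative values kept direction and side of the threshold, 2 passed only with DESeq2 (0.53 for Rpl29 and 1.13 for Rps27rt), and 21 changed sign. With copies summed by sequence, the log2 fold change of Rpl12 was 0.047, that of Rpl14 was 0.042 and that of Rpl5 was 0.083. With copies summed by symbol, the log2 fold change of Rpl14 was 0.042. With quantile normalization, that of Rpl22l1 was -0.0066, that of Rpl36al was -0.013 and that of Rplp2 was -0.049. With each sample left out in turn, the log2 fold change of Rpl14 went from -0.047 to 0.039, of Rpl22l1 from -0.010 to 0.059, of Rpl36al from -0.035 to 0.079, of Rpl37rt from -0.011 to 0.16, of Rpl7l1 from -0.064 to 0.14, of Rplp2 from -0.040 to 0.075, of Rps27l from -0.015 to 0.080 and of Rps4l from -0.12 to 0.41. The cause was not tested.

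Same-numbered Control and Cripto KO samples did not deviate together (correlations of -0.21, -0.0052 and -2.46e-05). The deviations were taken from means of only 3 samples per group, so this check cannot exclude a pairing. The labels also do not say that samples with the same number belong together, which limits the replicate block as well. With the replicate block the smallest adjusted p of a main gene was 0.254 (limma). None of the 6 samples had its highest correlation with the same number, and the block changed no call of a main gene or a copy. Of the 33 copies, 15 had 0 reads in at least 1 sample, as Rpl34-ps1 did, which had 1113 in another. Shared sequence limits what a copy's value means, and whether a copy is transcribed was not tested.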
